A study of Homo sapiens with 4 samples.

Results

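Listed regions of open chromatin were examined at 6 genes that encode the drug target of this study and proteins that work with it: KDM1A, RCOR1, HDAC1, HDAC2, REST and GFI1. A peak belonged to a gene when its summit lay in the gene body or within 25 kb of it, on hg19 gene coordinates. The 6 windows held 59 of the 194551 peaks listed with vehicle and 53 of the 163735 peaks listed with GSK2879552. Membership used position only, and no peak was chosen for its height or its change.

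The data are ATAC-seq peak lists. In ATAC-seq a transposase cuts accessible DNA and attaches sequencing adapters to it, so tags (sequenced reads, each counted over 100 bp) pile up over open regions. The cells were LNCaP, an androgen-sensitive human prostate cancer line, and all groups came from this 1 line. One group received vehicle and the other GSK2879552, given in the protocol as 50 µM for 4 hours in medium with 5% CSS, after maintenance in medium with 10% FBS. That protocol text is the same for all 4 samples, so the groups rest on the agent label. Each group was 2 sequencing lanes, labelled as technical replicates, and 1 peak list shared by both lanes. There is therefore 1 library per condition and no replicate check. No test between conditions was possible, and an effect of the drug cannot be told apart from a difference between libraries. Intervals of tags and tag ratios cover counting error only. Those of shares and of the median run over peaks, which are not replicates of a condition.

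KDM1A, also called LSD1, is a flavin-dependent enzyme that removes methyl groups from histone lysines, and GSK2879552 inactivates it by binding its flavin cofactor. KDM1A works in the CoREST complex, where the scaffold RCOR1 holds it together with the histone deacetylases HDAC1 and HDAC2. The complex has no strong sequence preference of its own and is brought to genes by DNA-binding repressors. REST recruits it to neuronal genes in other cell types, and GFI1, a zinc finger repressor of blood cells, recruits it through its SNAG domain. In prostate cells KDM1A is also known as a partner of the androgen receptor.

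RefSeq promoter windows (250 bases before to 50 after a transcript start, build GRCh38.p14) are shown for 4 genes, because they differ in base composition and because peaks lay at or near these starts. All 6 genes matched the RefSeq table, REST with 2 starts and GFI1 with 3. KDM1A is shown as the drug target, RCOR1 for its many GC boxes, REST for its wide open region, and the second GFI1 start because the main GFI1 peak lay inside the gene. Capitals mark the GC box GGGCGG or its reverse complement, the letters bound by SP and KLF factors, and in GFI1 also AATC or its reverse complement, the core of the site that GFI1 itself binds.
KDM1A, chr1:23019218-23019517, plus strand: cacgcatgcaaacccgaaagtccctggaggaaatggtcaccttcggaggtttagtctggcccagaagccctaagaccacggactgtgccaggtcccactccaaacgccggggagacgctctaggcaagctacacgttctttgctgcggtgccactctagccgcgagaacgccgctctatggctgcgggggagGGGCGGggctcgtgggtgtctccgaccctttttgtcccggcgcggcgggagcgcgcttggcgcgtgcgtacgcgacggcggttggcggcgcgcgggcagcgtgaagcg
RCOR1, chr14:102592399-102592698, plus strand: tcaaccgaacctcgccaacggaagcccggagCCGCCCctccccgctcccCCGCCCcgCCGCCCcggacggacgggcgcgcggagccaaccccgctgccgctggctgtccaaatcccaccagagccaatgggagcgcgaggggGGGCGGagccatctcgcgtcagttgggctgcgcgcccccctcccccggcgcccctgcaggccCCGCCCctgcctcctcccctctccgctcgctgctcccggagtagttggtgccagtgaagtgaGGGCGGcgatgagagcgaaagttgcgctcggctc
REST, first start, chr4:56907650-56907949, plus strand: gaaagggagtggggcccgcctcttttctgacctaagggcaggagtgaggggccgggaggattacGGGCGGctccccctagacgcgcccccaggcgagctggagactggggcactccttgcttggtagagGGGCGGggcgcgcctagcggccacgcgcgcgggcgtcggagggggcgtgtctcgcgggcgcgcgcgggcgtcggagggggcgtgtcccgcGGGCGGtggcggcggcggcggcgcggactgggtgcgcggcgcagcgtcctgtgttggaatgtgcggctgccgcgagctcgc
GFI1, second start, chr1:92486050-92486349, minus strand: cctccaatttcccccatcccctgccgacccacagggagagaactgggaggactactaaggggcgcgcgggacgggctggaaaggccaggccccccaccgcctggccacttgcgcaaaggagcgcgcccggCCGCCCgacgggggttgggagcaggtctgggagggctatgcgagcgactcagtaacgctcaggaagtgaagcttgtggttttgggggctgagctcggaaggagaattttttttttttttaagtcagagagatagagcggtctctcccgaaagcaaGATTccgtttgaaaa

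The windows ranged from GC-rich to near the middle of all promoters. GC content was 66.7% for KDM1A, 74.3% for RCOR1, 73.7% for HDAC1, 64.0% for HDAC2 and 76.0% for the first REST start. The GFI1 starts had 63.3%, 59.7% and 66.7%, and the median of all 35116 windows was 58.7%. KDM1A held 36 CpG dinucleotides and REST 44, more than 87.3% and 95.8% of all windows, while the second GFI1 start held 20, more than 58.8%. GC boxes, searched on both strands, numbered 6 in RCOR1, 6 in HDAC1, 3 at the first REST start, 1 in KDM1A and 0 in HDAC2. The second REST start held 2 and each GFI1 start 1. A GC box was found in 45.0% of all windows, and 5 or more in 5.14%. The CCAAT box CCAAT, found in 34.6% of all windows, occurred in RCOR1, HDAC1 and the second GFI1 start. The ETS letters CCGGAA, found in 17.2%, occurred in HDAC1, at the second REST start and at the first GFI1 start and the one deepest in the gene. AATC was present in every window of these genes but that of KDM1A, and in 69% of all windows. These matches are letters in a window and do not show that a factor bound.

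Open regions covered the annotated start of 5 of the 6 genes in both lists, and GFI1 was the exception. Values below are tags at the summit, recovered from the deposited fold and −log10 p, and positions are hg19 and 1-based. To compare lists, the GSK2879552 tags were divided by 1.18, the ratio of the genome-wide backgrounds, since the GSK2879552 library was the deeper one by 17.6%. Over all 110134 paired peaks (1 vehicle peak and 1 GSK2879552 peak that overlap each other and nothing else) the median scaled ratio of GSK2879552 to vehicle was 0.680, a log2 ratio of -0.56, and before scaling it was 0.80 or -0.32. Values at the 6 genes are therefore read against 0.680 and not against 1.

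**Figure D1:**
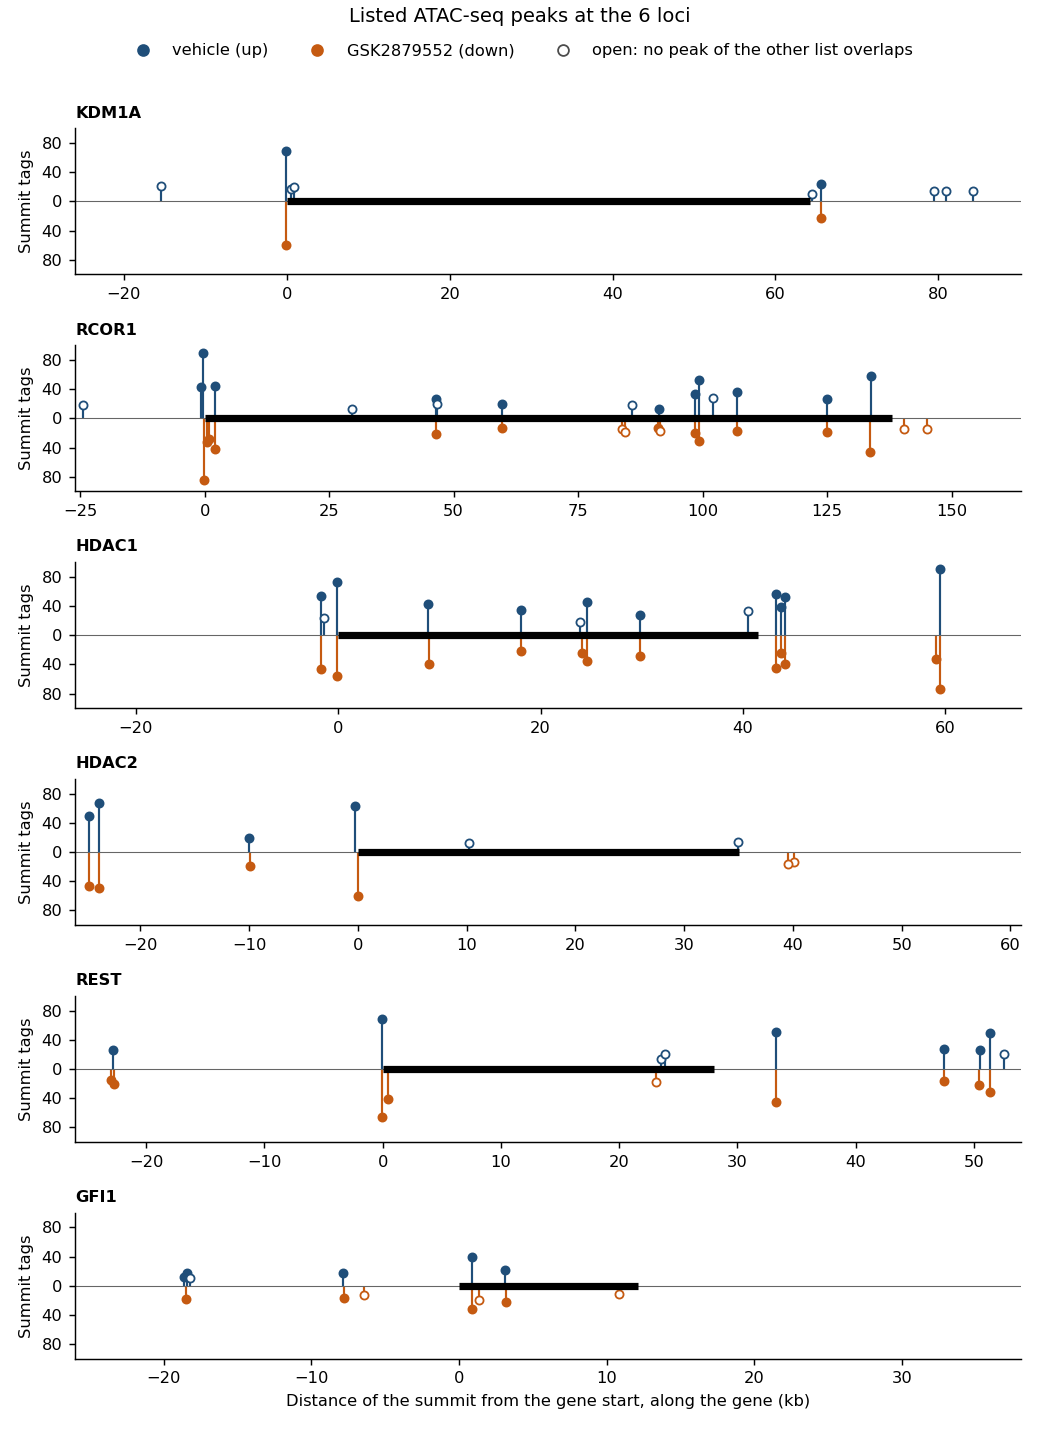
Summit tags (vertical axis, unscaled) of each listed peak against the distance of its summit from the gene start (horizontal axis, kb, in the direction of transcription), with vehicle upward, GSK2879552 downward and the gene body as a black bar. Open circles have no overlapping peak in the other list. The KDM1A panel has 7 open circles on the vehicle side and none below, while its 2 filled pairs stand at the start and just past the end.

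The KDM1A start kept its peak, with nearly the same summit. The gene lies on the plus strand of chromosome 1, from 23345941 to 23410184. The vehicle peak at 23345694 to 23346301 was 608 bp wide and had 69 tags (exact 95% Poisson interval 53.7 to 87.3). The GSK2879552 peak at 23345718 to 23346228 was 511 bp wide and had 60 tags (45.8 to 77.2), with its summit 3 bp from the vehicle summit. Both intervals overlap widely, and the scaled ratio was 0.740 (exact binomial interval 0.514 to 1.06), somewhat above the 0.680 of all pairs. Among the 11021 pairs with 120 to under 200 tags over both lists, 64.9% had a lower ratio.

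In the surroundings of the KDM1A start the tag ratio was lower than at its summit, within counting error. The caller's local background is a count of tags in the 10 kb around a summit divided by 100, so it gives a second readout that includes the peak itself. It held 469 tags with vehicle and 346 with GSK2879552, fewer even before scaling. The scaled ratio was 0.628 (0.545 to 0.723), an interval that lies wholly within that of the summit ratio. For the 12110 pairs with 60 to 90 vehicle summit tags and a local count in both lists, the median of this ratio was 0.816, with 0.677 at the 5th percentile, and 0.661% of them lay below KDM1A. That comparison was chosen after the value was seen. The authors' fold enrichment, which is relative to each list's own background, was 12.30 with vehicle and 13.68 with GSK2879552.

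Most of the other vehicle peaks of the KDM1A window had no counterpart. Of its 9 vehicle peaks 2 overlapped a GSK2879552 peak, and 7 did not. Over all peaks 38.5% of the vehicle list had no GSK2879552 partner, and 23.5% of the GSK2879552 list had no vehicle partner. The 7 peaks were weak, with 10 to 21 tags. Over the whole vehicle list, peaks with the tag numbers of the 9 KDM1A peaks had partners in shares that sum to 4.27 of 9, where 2 were found. The exact binomial interval of 2 in 9, 22.2%, was 2.81 to 60%. It includes that tag-weighted share, while the 61.5% of all vehicle peaks lies just above it.

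A pair of these unpartnered peaks lay just inside the gene, downstream of the start. Their summits were 537 and 838 bp from it, with 17 and 20 tags, and the GSK2879552 start peak ended 205 and 479 bp before them. Another, with 21 tags, lay 15401 bp upstream of the start, and its nearest GSK2879552 peak was 15084 bp away. The remaining 4 lay past the gene end, by 219, 15252, 16695 and 20007 bp, with 10, 15, 14 and 15 tags. In the GSK2879552 list the KDM1A window held the start peak and 1 further peak, 1307 bp past the gene end, with 23 tags against 24 with vehicle. Its scaled ratio was 0.815 (0.440 to 1.51). In the RefSeq table the gene LUZP1 overlaps KDM1A, and peaks past the end were not assigned to either gene.

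RCOR1, the scaffold of the complex, had the strongest start peak of the 6 genes and the only 2 pairs at a ratio of 0.5 or lower. The gene lies on the plus strand of chromosome 14, from 103058996 to 103196913. The vehicle peak over its start, 103058507 to 103059886, was 1380 bp wide with 90 tags (72.4 to 111). With GSK2879552 this stretch was listed as 3 peaks. The strongest, 103058245 to 103059077, had 84 tags (67.0 to 104), and the other two, with summits 533 and 791 bp inside the gene, had 33 and 28. That strongest peak also reached a second vehicle peak of 43 tags, 662 bp upstream. The scaled ratio of the highest summits was 0.794 (0.583 to 1.08), with 1097 and 969 tags in the surrounding 10 kb, a scaled ratio of 0.751 (0.688 to 0.820).

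The body of RCOR1 held open regions along most of its length. Its window had 16 vehicle and 17 GSK2879552 peaks, 13 and 14 of them with the summit in the gene body. The 9 pairs had a median scaled log2 ratio of -0.69 and summed to 308 against 223 tags, a scaled ratio of 0.616 (0.516 to 0.734), with the 0.683 of all pairs summed inside the interval. The lowest stood 106941 bp from the start, with 36 tags with vehicle and 18 with GSK2879552, a scaled ratio of 0.425 (0.227 to 0.769). The next, 99333 bp from the start, had 53 and 31 tags, a scaled ratio of 0.498 (0.309 to 0.789). Of all pairs 7.10% were at 0.5 or lower, so the count of 2 in 30 at the 6 genes is near that share. Among pairs of like height both ratios were low. Of pairs with 40 to under 60 tags over both lists, 2.98% lay below the first. Of pairs with 80 to under 120 tags, 1.77% lay below the second. Both are the lowest of the 30 pairs and are named for that.

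Other RCOR1 peaks kept more of their tags. At 133790 bp from the start, the peak with the most vehicle tags among the pairs had 58 and 46 tags, a scaled ratio of 0.675 (0.448 to 1.01). At 2098 bp it had 44 and 42 tags, a scaled ratio of 0.812 (0.519 to 1.27), higher than 91.9% of pairs with 80 to under 120 tags over both lists. RCOR1 also had 5 vehicle peaks and 5 GSK2879552 peaks without a partner, while 11 of 16 and 12 of 17 had one. Over the whole lists, peaks with the same tag numbers had partners in shares that sum to 11.5 of 16 and 13.6 of 17. The counts are therefore near the background. The strongest were 28 tags with vehicle, 102079 bp from the start, and 19 tags with GSK2879552, 84396 bp from it. Across the vehicle list 82.4% of peaks with 28 tags had a partner, and 86.1% of GSK2879552 peaks with 19 tags did.

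**Figure D2:**
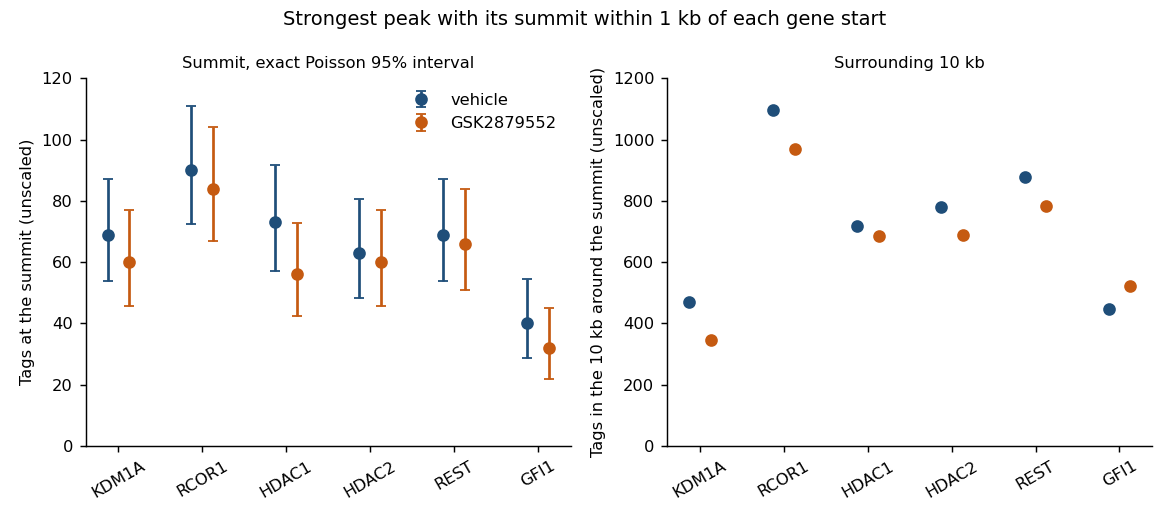
Tags at the summit with exact Poisson intervals (left) and tags in the surrounding 10 kb (right), both unscaled, for the strongest vehicle peak within 1 kb of each gene start and its strongest overlapping GSK2879552 peak. At the summit the GSK2879552 point is the lower one in all 6 genes with overlapping intervals. Over pairs of any height 83.3% had fewer tags before scaling, and at the heights of these peaks the share was larger. For pairs with 40 vehicle tags the 95th percentile with GSK2879552 was 39, and for pairs with 90 it was 89.4. In the right panel GFI1 alone has more tags with GSK2879552.

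HDAC1 and HDAC2 are closely related deacetylases that sit in the CoREST, NuRD and SIN3 complexes, and both had an open start. HDAC1 lies on the plus strand of chromosome 1, from 32757708 to 32799224. Its start peak, 32757388 to 32757946, had 73 tags (57.2 to 91.8) with vehicle, and the GSK2879552 peak, 32757406 to 32758079, had 56 (42.3 to 72.7). This was the lowest ratio among the 6 start peaks, 0.653 (0.452 to 0.937), and the only one whose interval lay below 1. It is close to the 0.680 of all pairs, but low among pairs of like height. Of the pairs with 120 to under 200 tags over both lists, 17.0% had a lower ratio. Their median was 0.714, which lies inside the HDAC1 interval. Unlike most pairs, the GSK2879552 peak was the wider one, with 674 against 559 bp.

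The HDAC1 window was the most densely filled, with 14.2 vehicle peaks per 100 kb against 9.53 over the 6 windows. All 12 GSK2879552 peaks there overlapped a vehicle peak, and 10 of the 13 vehicle peaks had a partner. Over the whole lists, peaks with the same tag numbers had partners in shares that sum to 11.8 of 12 and 11.6 of 13, so these counts are near the background. In the gene body, a pair 29815 bp from the start had 27 tags with vehicle and 28 with GSK2879552, the only one of the 30 pairs with more tags before scaling. Its scaled ratio was 0.882 (0.501 to 1.56). A region 24578 bp from the start, 686 bp wide with 45 tags, was listed with GSK2879552 as 2 peaks of 25 and 36 tags. At 18087 bp the tags were 35 and 22, a scaled ratio of 0.535 (0.299 to 0.937). At 8911 bp they were 43 and 40, a ratio of 0.791 (0.501 to 1.25), and 1703 bp upstream of the start they were 54 and 47, a ratio of 0.740 (0.490 to 1.12). Change within the gene thus ran on both sides of the 0.680 of all pairs.

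Past the end of HDAC1 lay a cluster on high local background. The summits 1701, 2270 and 2622 bp past the end had 56, 39 and 53 tags with vehicle and 45, 24 and 40 with GSK2879552. Their scaled ratios were 0.684 (0.451 to 1.03), 0.523 (0.301 to 0.893) and 0.642 (0.415 to 0.986). These 3 peaks share most of their surrounding 10 kb, which held 1046 to 1065 tags with vehicle and 945 to 961 with GSK2879552. The strongest vehicle-only peak of the 6 genes, with 33 tags, lay in the same stretch, 1068 bp before the gene end by its summit. Among vehicle peaks with 33 tags 91.3% had a partner. The highest summit of all 59 vehicle peaks stood 17944 bp past the end, in a region of 1055 bp with 91 tags. With GSK2879552 that region was listed as 2 peaks with 32 and 74 tags. In the RefSeq table MARCKSL1 is the next gene on this side and LCK the one before HDAC1, and the regions were not assigned to them.

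HDAC2 lies on the minus strand of chromosome 6, from 114257320 to 114292359, so its start is the higher coordinate. The vehicle peak over the start, 114291054 to 114292776, was 1723 bp wide with 63 tags (48.4 to 80.6), and the GSK2879552 peak, 114291406 to 114292750, was 1345 bp wide with 60 tags (45.8 to 77.2). The scaled ratio was 0.810 (0.559 to 1.17), higher than 90.4% of pairs with 120 to under 200 tags over both lists. The summit moved 306 bp, from 272 bp upstream of the start to 34 bp inside, the largest shift among the 30 pairs, whose median was 15 bp.

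Little was listed in the body of HDAC2, and strong peaks lay far upstream. At 23836 bp upstream the tags were 67 with vehicle and 49 with GSK2879552, a scaled ratio of 0.622 (0.421 to 0.913). At 24728 bp upstream they were 50 and 46, a ratio of 0.783 (0.513 to 1.19), and at 9966 bp they were 19 and 19. The vehicle-only peaks, in the gene body, had 14 and 12 tags, and the GSK2879552-only peaks, 4503 and 5079 bp past the gene end, had 16 and 13. The paired peaks of HDAC1 and HDAC2 had summed ratios of 0.676 (0.579 to 0.788) and 0.744 (0.603 to 0.916), with overlapping intervals.

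REST, the repressor of neuronal genes that recruits CoREST, had the widest start region. The gene lies on the plus strand of chromosome 4, from 57774042 to 57802010. The vehicle peak, 57773760 to 57775562, was 1803 bp wide and had 69 tags (53.7 to 87.3) at a summit 43 bp upstream of the start. With GSK2879552 it was listed as 2 peaks. The first, 57773760 to 57774255, had 66 tags (51.0 to 84.0), and the second, 57774390 to 57775595, had 41 tags at a summit 468 bp inside. The scaled ratio of the highest summits was 0.814 (0.572 to 1.16), the highest of the 6 start peaks. The RefSeq table has a second REST start 1010 bp after the first, and the vehicle region reached 1520 bp past the start used here. The builds were not converted, so these distances are only set side by side.

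Downstream of REST some peaks had lower ratios than its start, with intervals that overlap that of the start. At 5324 bp past the end the tags were 50 with vehicle and 45 with GSK2879552, a scaled ratio of 0.766 (0.50 to 1.17). At 23411 bp past the end they were 49 and 31, a ratio of 0.538 (0.332 to 0.861), lower than all but 5.71% of pairs with 80 to under 120 tags. At 19488 bp they were 28 and 17, a ratio of 0.516 (0.265 to 0.977). Near the 3′ end of the gene body each list had weak peaks that missed each other. The vehicle summits at 23503 and 23891 bp from the start had 13 and 20 tags, and the GSK2879552 summit at 23130 bp had 18, with 120 bp between the nearest edges. At 22770 bp upstream a vehicle peak of 26 tags was matched by 2 GSK2879552 peaks of 15 and 20 tags.

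GFI1 had the lowest start peak of the 6 genes and was the one whose annotated start lay in no listed peak. Its median over all vehicle peaks of the window, 18 tags, was close to the 17 of KDM1A. It lies on the minus strand of chromosome 1, from 92940318 to 92952433. The nearest peak, 92951435 to 92951630 with vehicle, had 40 tags (28.6 to 54.5) at a summit 900 bp inside the gene. With GSK2879552 the peak at 92951477 to 92951607 had 32 tags (21.9 to 45.2) at 882 bp. The scaled ratio was 0.680 (0.414 to 1.11), equal to the median of all pairs. A second peak inside the gene, at 3131 bp with vehicle and 3215 bp with GSK2879552, had 22 tags in both lists, a scaled ratio of 0.851 (0.449 to 1.61). In the RefSeq table the inner GFI1 starts lie 826 and 3111 bp after the first, so both peaks stood at distances like those of the inner starts. The builds were not converted, and the start used here need not be the first RefSeq start.

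The 10 kb ratio around the GFI1 peak was the highest of the 6 starts, with an interval that overlaps that of HDAC1 (0.731 to 0.904). The 10 kb around its summit held 447 tags with vehicle and 522 with GSK2879552, a scaled ratio of 0.993 (0.874 to 1.13), and before scaling this is an increase. Around the inner peak the counts were 518 and 627, a ratio of 1.03 (0.915 to 1.16), in windows that share most of their length with the first. At the other 5 starts this ratio ran from 0.628 in KDM1A to 0.813 in HDAC1, and each interval lay below 1. Such an interval was found for 45.4% of all pairs with a local count in both lists, and for 72.9% of those with 60 to 90 vehicle summit tags. It was therefore common at peaks of this height. The ratio was 0.751 in RCOR1, 0.750 in HDAC2 and 0.758 in REST. The median over all 66547 pairs with a local count in both lists was 0.892, with an interquartile range of 0.793 to 0.993, so GFI1 stood at the upper quartile. Among the pairs of the other genes, values like it were found in the bodies of HDAC1 (1.01, 0.957 and 0.985) and RCOR1 (1.02). Against the 0.816 of pairs with 60 to 90 vehicle tags, HDAC1 was level and the other 4 were lower, with 0.816 outside the interval at KDM1A alone. As the count includes the summit itself, a strong start peak is part of the number.

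GFI1 had more GSK2879552 than vehicle peaks, 7 against 6, and the peaks found in 1 list only were weak. The 3 GSK2879552-only peaks had 11, 12 and 19 tags, at 10818 bp from the start, at 6424 bp upstream and at 1335 bp inside the gene. The vehicle-only peak, 18199 bp upstream, had 11 tags and belonged to a group of 3 small peaks, the others with 18 and 12 tags, over which the GSK2879552 list had 1 peak of 398 bp with 18 tags. At 7821 bp upstream the tags were 18 and 17, a scaled ratio of 0.803 (0.389 to 1.65). The highest GFI1 summit with GSK2879552 was thus the 32 tags named above, and the summits of its 3 pairs differed by 8 tags or fewer before scaling.

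**Figure D3:**
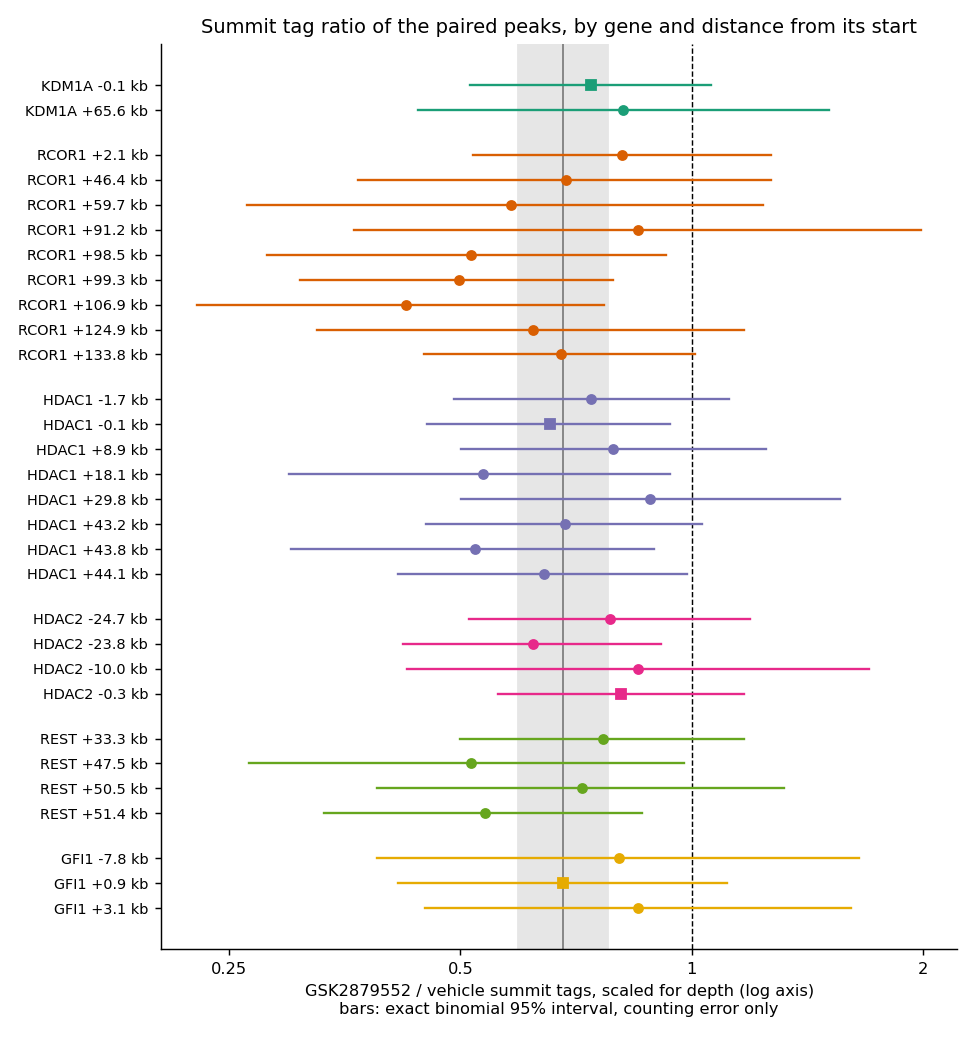
Scaled ratio of GSK2879552 to vehicle summit tags (log axis) for the 30 paired peaks, ordered by gene and by distance from its start, with exact binomial 95% intervals and squares for peaks within 1 kb of a start. The grey line and band are the median (0.680) and interquartile range (0.595 to 0.777) of all pairs, and every point lies left of 1, the dashed line.

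Set in order by vehicle summit tags, the start peaks of RCOR1 (90), HDAC1 (73), KDM1A and REST (both 69) and HDAC2 (63) had overlapping intervals between neighbours. GFI1 (40) had an interval that overlapped those of HDAC2, KDM1A and REST and lay below those of HDAC1 and RCOR1. With GSK2879552 the order was RCOR1 (84), REST (66), KDM1A and HDAC2 (both 60), HDAC1 (56) and GFI1 (32). HDAC1 moved from the second place to the fifth, within overlapping intervals. Relative to local background the order was another one. KDM1A had the highest authors' fold in both lists. Its surroundings held 469 vehicle tags in 10 kb, against 718 to 1097 at RCOR1, HDAC1, HDAC2 and REST. Those of GFI1 held fewer still, 447. Gene copy number, which differs along the LNCaP genome and scales tags, was not analysed here.

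Over all 6 genes, paired peaks carried fewer tags with GSK2879552, by about as much as over all pairs. All 30 pairs had a scaled ratio below 1, where 94.2% of all pairs did. Before scaling 26 of the 30, or 86.7%, had fewer tags, against 83.3% of all pairs, and of the other 4 the tags were equal in 3. The median scaled log2 ratio was -0.55, against -0.56 for all pairs. Its exact interval, -0.68 to -0.35, is that of the median over the 30 pairs, which are not replicates. Single pairs ran from -1.23 to -0.18. Summed tags were 1213 and 968, a scaled ratio of 0.679 (0.623 to 0.739), against 0.683 for all pairs. In 10 of 30 the interval lay below 1, or 33.3%, against 26.8% of all pairs. The GSK2879552 peak was the narrower one in 25 of 30, or 83.3%, against 81.2% of all pairs.

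By position within the locus, the ratios did not differ beyond counting error. The 4 pairs within 1 kb of a start summed to 245 and 208 tags, a scaled ratio of 0.722 (0.597 to 0.872). The start peaks of RCOR1 and REST are not among them, as each met more than 1 GSK2879552 peak. The ratios of their highest summits were 0.794 and 0.814. The 13 pairs in gene bodies had 0.655 (0.566 to 0.757), the 5 upstream pairs 0.728 (0.593 to 0.893) and the 8 downstream pairs 0.646 (0.546 to 0.765). All 4 intervals overlap and include the 0.683 of all pairs. Between genes the summed ratio ran from 0.616 in RCOR1 to 0.759 (0.558 to 1.03) in KDM1A, again with overlapping intervals. These sums cover unlike sets of peaks. Those of RCOR1 and REST hold no start peak, and that of KDM1A rests on 2 pairs, the start peak among them. GFI1 stood at 0.755 (0.541 to 1.05) and REST at 0.639 (0.498 to 0.820).

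**Figure D4:**
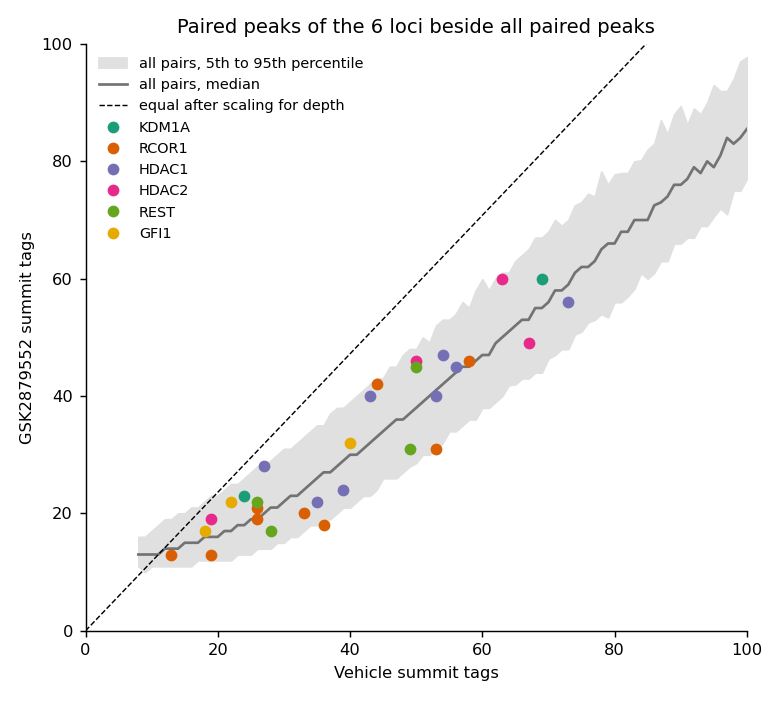
Summit tags with GSK2879552 against summit tags with vehicle (both unscaled) for the 30 pairs, coloured by gene, beside the median and the 5th to 95th percentiles of all pairs at each number of vehicle tags. The dashed line marks equality after scaling for depth, and all points of the 6 genes lie below it, on both sides of the grey median.

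Peaks found in 1 list only were mostly weak. Of the 59 vehicle peaks 38 had a partner, a share of 64.4% (50.9 to 76.4), against 61.5% of all. Of the 53 GSK2879552 peaks 42 had one, or 79.2% (65.9 to 89.2), against 76.5%. Partnered vehicle peaks had a median of 41.5 tags and unpartnered ones 18. With at least 26 vehicle tags 30 of 32 had a partner, against 93.4% of all such peaks, and with 13 to 15 tags 1 of 7 did, against 25.4%. No GSK2879552 peak with more than 19 tags lacked a vehicle partner at these genes, which is near the background. Over the whole GSK2879552 list 94.1% of peaks with 21 to 25 tags had a partner, and 99.0% of those with at least 26.

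Covered length fell in each of the 6 windows, most at KDM1A. It went from 1919 to 656 bp there, 65.8% less, mainly through the unpartnered peaks. It was 19.9% less at RCOR1, 18.3% at HDAC1, 18.5% at HDAC2, 10.5% at REST and 2.86% at GFI1. Over the 6 windows it was 21% less, against 24.9% over all chromosomes compared, and the number of peaks was 10.2% lower, against 15.8%. Without the KDM1A window the share of vehicle peaks with a partner was 72.0% in place of 64.4%.

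Wide regions were listed in pieces more often than other peaks. Of the 38 overlapped vehicle peaks, 5 met more than 1 GSK2879552 peak, or 13.2%, against 5.11% of all overlapped vehicle peaks. Among those of at least 1000 bp it was 3 of 4, at RCOR1, HDAC1 and REST, with HDAC2 as the exception, against 44.1% of all such peaks. The reverse, a GSK2879552 peak over more than 1 vehicle peak, was found for 2 of 42, at RCOR1 and GFI1, or 4.76%, against 0.870% of all. With counts this small no difference from the background can be read from them.

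Some windows ended close to listed peaks, strong ones among them. The outermost vehicle peaks inside were at 24.7 kb from HDAC2 (50 tags), 24.6 kb from REST (20 tags) and 24.5 kb from RCOR1 (18 tags). The nearest vehicle peaks left out lay 27.8 kb from HDAC1 (14 tags), 29.0 kb from RCOR1 (24 tags) and 29.1 kb from HDAC2 (32 tags). At REST the first vehicle peaks left out, 33.5 kb before and 41.1 kb past the gene, had 74 and 82 tags. Both were higher than the strongest REST peak inside, with 69. Past the end of KDM1A the next GSK2879552 peak lay 84.1 kb away, where the next vehicle peak outside the window lay at 31.6 kb. Other genes of the complex (RCOR2, RCOR3, PHF21A, HMG20B, ZMYM2 and others) and marker genes of LNCaP were not analysed here, since their hg19 positions were not at hand.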

How the data were processed

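For each condition the authors deposited 1 narrowPeak list, which both lanes share per the labels. Per the submitters' processing notes, the builds are hg19 and GRCh37 and the tools include the peak caller MACS2 2.1.2, with SAMtools 0.1.18 and BWA 0.7.2. How reads were trimmed, filtered, stripped of duplicates or shifted to the cut site is not stated in the labels or lists. Each deposited row has a score, a fold enrichment (a ratio to the caller's background), a −log10 p and a −log10 q. The summit offset of the deposited rows located each summit. Both lists stop at a q-value of 0.05.

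Summit tags and background were computed from the deposited fold and −log10 p, by the formulas of this caller. A whole number of tags matched the −log10 p within 0.001 in 100% of rows, and simulated peaks with known tags were recovered. Local backgrounds were multiples of 0.01 in 100% of rows, the step that 100 bp tags counted over 10 kb give. Where a row stands at the genome-wide background (2.31 for vehicle, 2.72 for GSK2879552), it has no local count. The lists hold no total of tags per library. The fewest tags at a listed summit were 8 and 9, and no summit passed the limit of 200 tags, so the highest may be compressed.

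Peaks on chromosomes 1 to 22, X and Y (191905 and 161535) formed the comparison set. Peaks were partners at 1 bp of overlap, and pairs overlap exactly 1 peak on each side. The strand of each gene and the promoter windows come from RefSeq. Shares have exact Clopper-Pearson 95% intervals, tags exact Poisson and ratios exact binomial ones. All 6 genes are named, each with its start peak, its strongest and most extreme pairs and its strongest unpartnered peaks. The genes, the windows and the methods were chosen with earlier results of these data known. The alternatives are given in the closing section. Python 3.11.15, NumPy 2.4.6, pandas 2.3.3, SciPy 1.17.1 and matplotlib 3.10.9 were used.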

Additional observations from a re-analysis of the deposited data

How the results depend on the processing

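No paired analysis was possible because each condition had 1 library, whose lanes are technical replicates, and no replicate could be left out. Of 81 alternative values 74 stayed within the exact interval of the main value, or within 1.5 times for counts, and none changed direction. The share of vehicle peaks with a partner, 64.4%, was 49.2% at a reciprocal overlap of 50%, and the reverse share, 79.2%, was 54.7%. The reverse share was 89.7% when both lists kept only peaks whose −log10 q reached 5. Stricter overlap rules count regions that differ in width or summit. With gene bodies only, the windows held 27 and 26 peaks in place of 59 and 53, by construction. The median log2 ratio, -0.55, was -0.31 with no scaling for depth. The summed ratio of HDAC1, 0.676, was 0.795 unscaled. For a start peak the ratio in the surrounding 10 kb (an alternative chosen after seeing the data) was 0.628 at KDM1A, where the summit gave 0.740, and 0.993 at GFI1, where it gave 0.680. The restriction to gene bodies left no pair at KDM1A, HDAC2 and REST and gave no value there. No list was called at another depth, so what depth limits was not tested.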
